A study of Mus musculus with 12 samples.

Results

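Macrophage genes were measured in RNA of mammary epithelial cell preparations from pubertal mice. The 10 genes were Csf1r, Cd68, Mrc1, C1qa, C1qb, C1qc, Cd163, Msr1, Mpeg1 and Aif1, taken as every probe set that the array's annotation gives to exactly 1 of these symbols. The array names 18193 genes in this way. The 10 genes had 17 of its 45101 probe sets, and 16 of them lay above the level filter of the test (27022 probe sets in all). Csf1r and C1qb were each read by 3 probe sets, Msr1 by 4, of which 3 were tested, and each of the other 7 genes by 1. Probe set 1425435_at of Msr1 was below the filter. A probe set's value is its intensity, a linear brightness in arbitrary units, and a gene with several probe sets was read by its brightest one unless another is named.

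The cells came from female mice of the inbred strain FVB/N. All mice carried MMTV-rtTA, a doxycycline-responsive activator under a promoter active in mammary epithelium. The control group, 6 arrays, carried no other transgene, and the p190B group, 6 arrays, also carried TetO-p190B-IRES-luciferase, so that doxycycline switches on p190B (Arhgap5), a GTPase-activating protein, together with luciferase. Doxycycline was in the chow of both groups, at 2 g/kg. Feeding began at 5 weeks of age and lasted 7 days, so that the mice were 6 weeks old at isolation. The labels call the arrays of a group biological replicates and do not say whether a replicate is 1 mouse or a pool. p-values measure the spread between these preparations.

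Macrophages are phagocytes that settle in every tissue. Their survival depends on the receptor encoded by Csf1r, which binds CSF1 and IL-34, and in the pubertal mammary gland they gather around the growing end buds and ducts. C1q, built from the A, B and C chains that C1qa, C1qb and C1qc encode, starts the classical complement pathway, and tissue macrophages are a main source of it. A preparation enriched for epithelium can still hold such cells. In bulk RNA, fewer cells of a type and less RNA per cell cannot be told apart.

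C1qb and C1qc were neighbours of C1qa in the mouse RefSeq annotation, with no other annotated gene between them. Windows of 300 bases around the gene start were matched by symbol for 7 of the 10 genes, from RefSeq (GRCm38.p6); Csf1r, C1qa and Msr1 were not among them. The windows of C1qb and C1qc are shown because these genes varied together across the arrays, and that of Cd68 because it varied with them. Each reads 5′ to 3′ on the gene's strand, and capitals mark GAGGAA, the core that the myeloid factor PU.1 can bind, or TTCCTC, the same core on the other strand.
C1qb, chr4:136886151-136886450, minus strand: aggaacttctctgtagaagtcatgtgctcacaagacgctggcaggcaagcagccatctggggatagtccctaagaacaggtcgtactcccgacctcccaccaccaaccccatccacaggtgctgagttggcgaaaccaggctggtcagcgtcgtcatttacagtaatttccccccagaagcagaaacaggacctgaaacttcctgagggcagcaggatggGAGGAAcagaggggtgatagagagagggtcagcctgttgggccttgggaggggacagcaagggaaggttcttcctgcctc
C1qc, chr4:136892865-136893164, minus strand: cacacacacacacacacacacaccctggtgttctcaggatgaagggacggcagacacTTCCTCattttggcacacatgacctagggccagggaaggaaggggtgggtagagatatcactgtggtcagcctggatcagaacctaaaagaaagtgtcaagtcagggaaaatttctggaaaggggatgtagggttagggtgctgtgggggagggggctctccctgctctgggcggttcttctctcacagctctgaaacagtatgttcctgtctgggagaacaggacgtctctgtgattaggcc
Cd68, chr11:69666121-69666420, minus strand: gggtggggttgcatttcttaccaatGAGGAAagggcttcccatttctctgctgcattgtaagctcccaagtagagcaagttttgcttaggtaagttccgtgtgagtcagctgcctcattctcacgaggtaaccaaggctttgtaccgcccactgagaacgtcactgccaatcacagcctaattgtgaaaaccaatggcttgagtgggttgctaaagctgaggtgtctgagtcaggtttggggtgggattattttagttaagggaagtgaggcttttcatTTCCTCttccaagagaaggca

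The GAGGAA core stood on either strand in 5 of the 7 windows (Mrc1, C1qb, C1qc, Cd68 and Aif1) and in 28.1% of 32544 mouse windows of the same length. Another 4 motifs were searched on both strands. The Maf half-site TGCTGA was in 1 window (C1qb, against 19.5% of all windows), the AP-1 site TGANTCA in 1 (Cd68, 7.79%), the C/EBP motif TTGCNNAA in 1 (Cd68, 10.8%) and the TATA box TATAAA in 0 (13.6%). These motifs are described as letters in a window only.

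The preparations carried epithelial markers, and fibroblast markers at a similar mean level. All 22 epithelial markers with a named probe set passed the level filter, and the keratin Krt8 lay between 38760 and 47661 intensity units on every array. All 15 fibroblast markers passed it too, with Col3a1 between 36798 and 51409 units. The mean log2 level of fibroblast markers was 13.22 on control and 13.32 on p190B arrays, and that of epithelial markers 13.14 and 13.19. These levels do not measure the purity of the preparations. Arhgap5, read by 4 probe sets with log2 differences between −0.32 and 0.41, did not pass the genotype test (limma adjusted p from 0.258 to 0.925), so the transgene's own gene does not settle the genotype labels. Arrays p190B 1 and p190B 3 stood apart in control probe sets. Their 18S 3′ values were 725 and 4266.3 against at most 440.4 on the other 10 arrays, and their Actb log2 3′ over 5′ ratios were 0.48 and 0.59 against at most 0.35. Lymphocyte markers, 31 tested probe sets, varied most between preparations, with a mean log2 level from 7.46 to 9.999 on control arrays and from 7.10 to 10.11 on p190B arrays.

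Between genotypes, none of the 10 macrophage genes passed the test. Of the 16 tested probe sets 0 had an adjusted p under 0.05 in limma, a linear model across all tested probe sets, where 0.037% of all passed. At an unadjusted p under 0.05 there were 2 of 16, Cd68 and probe set 1434366_x_at of C1qb, against 9.32% of all tested probe sets. Both had the higher mean in p190B, the direction of 4.51% of all tested probe sets at that threshold. This count was 0 in 7 of the 12 fits that left out 1 array (control 1, 2, 5 or 6, or p190B 2, 5 or 6) and at most 3 in the others, and it was 0 with arrays scaled to equal medians. The median log2 difference over the 16 was 0.09, with 14 of them above 0, and that over all tested probe sets was 0.02. Without arrays p190B 1 and p190B 3 the median was 0.18, and 0 of 16 passed. The count at an unadjusted p under 0.05 was then 3 (Cd68, C1qc and the same C1qb probe set), against 11.9% of all.

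The CSF1 receptor gene Csf1r ran from 6754 through a median of 9537 to 11985 units on control arrays. On p190B arrays it ran from 8836 through 10707 to 12397. The groups overlapped: 1 p190B array lay above every control array and control 5 was the lowest of all. The log2 difference was 0.18 (SE 0.12, limma adjusted p = 0.697), and the other Csf1r probe sets gave 0.01 for 1419873_s_at and 0.10 for 1423593_a_at. The 3 Csf1r probe sets followed one another over the 12 arrays, with Pearson r from 0.839 to 0.907.

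Mrc1, the mannose receptor CD206, is a mark of tissue-resident macrophages. It spanned 2733, 3612 and 4315 units (lowest, median and highest) on control arrays and 3458, 4225 and 4565 on p190B arrays. Array p190B 1 was the only one to exceed all controls. Its log2 difference between genotypes was 0.16 (SE 0.11, limma adjusted p = 0.684). Among the receptor genes Mrc1 had the narrowest spread, a within-genotype SD of 0.20 on the log2 scale.

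Cd163, the scavenger receptor for haptoglobin-bound haemoglobin, behaved otherwise. Its control values were 335.2 at the lowest, 1204 at the median and 1729 at the highest, and its p190B values 491.4, 1380 and 1950. The low values were single arrays, control 6 and p190B 4, and every other array lay at 1085 or above. The log2 difference of 0.23 (SE 0.37, limma adjusted p = 0.905) was −0.09 without control 6, 0.49 without p190B 4 and −0.05 without p190B 1 and p190B 3. Its within-genotype SD of 0.75 exceeded that of 98.3% of the tested probe sets, whose median was 0.21.

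Msr1, the class A scavenger receptor, was dim. Its brightest probe set had 268.2, 399.6 and 589.2 units on control arrays and 353.2, 401.2 and 576.7 on p190B arrays, and the p190B values lay within the control range. The log2 difference was 0.09 (SE 0.16, limma adjusted p = 0.924). Its tested probe sets did not follow one another closely (r from 0.0703 to 0.562), and they gave 0.08 for 1422062_at and −0.04 for 1425434_a_at. The probe set below the filter, 1425435_at, held 59.3 to 115 units over the 12 arrays, and in a fit without the filter it gave 0.15 (SE 0.19).

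The C1q chains were read brightly on every array. C1qa spanned 6185, 6692 and 10504 units on control arrays and 5332, 7969 and 9760 on p190B arrays. C1qc spanned 2707, 3063 and 4773 on control arrays and 2816, 3972 and 4571 on p190B arrays. For each of these genes control 3 held the highest value of all 12 arrays, and no p190B array exceeded it.

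C1qb spanned 3907, 4643 and 6279 units on control arrays and 4350, 5018 and 6308 on p190B arrays, where p190B 2 passed control 3 by a small margin. The log2 differences were 0.06 for C1qa (SE 0.16), 0.11 for C1qb (SE 0.12) and 0.19 for C1qc (SE 0.15), with limma adjusted p from 0.752 to 0.951. The other C1qb probe sets gave 0.06 for 1437726_x_at and 0.20 for 1434366_x_at (SE 0.09, limma adjusted p = 0.488). The suffix x marks Affymetrix probe sets whose probes may also match other transcripts. Without arrays p190B 1 and p190B 3, which had low C1qa values (5684 and 5332), the differences were 0.28 for C1qa, 0.22 for C1qb and 0.36 for C1qc, and none passed (limma adjusted p from 0.353 to 0.506).

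Cd68, a lysosomal glycoprotein of phagocytes, had the largest log2 difference of the 10 genes, 0.27 (SE 0.13, limma adjusted p = 0.530). It spanned 1700, 2110 and 2977 units on control arrays and 2234, 2504 and 3162 on p190B arrays. All 6 p190B arrays lay above the control median and 2 above every control array, and control 3 exceeded the other 4. The difference was 0.36 without p190B 1 and p190B 3 (limma adjusted p = 0.356).

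Mpeg1, which encodes the pore-forming protein perforin-2, spanned 1558, 2529 and 3528 units on control arrays and 1688, 2179 and 3224 on p190B arrays. It was the only one of the 10 genes whose brightest probe set had a negative log2 difference, −0.11 (SE 0.21, limma adjusted p = 0.923). Aif1, the calcium- and actin-binding protein IBA1, spanned 456.2, 1110 and 1644 on control arrays and 607.8, 1034 and 1907 on p190B arrays. Its log2 difference was 0.02 (SE 0.33, limma adjusted p = 0.992). Aif1 varied 4.18-fold over the 12 arrays, and 5 of the 6 p190B arrays lay within the control range.

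**Figure D1:**
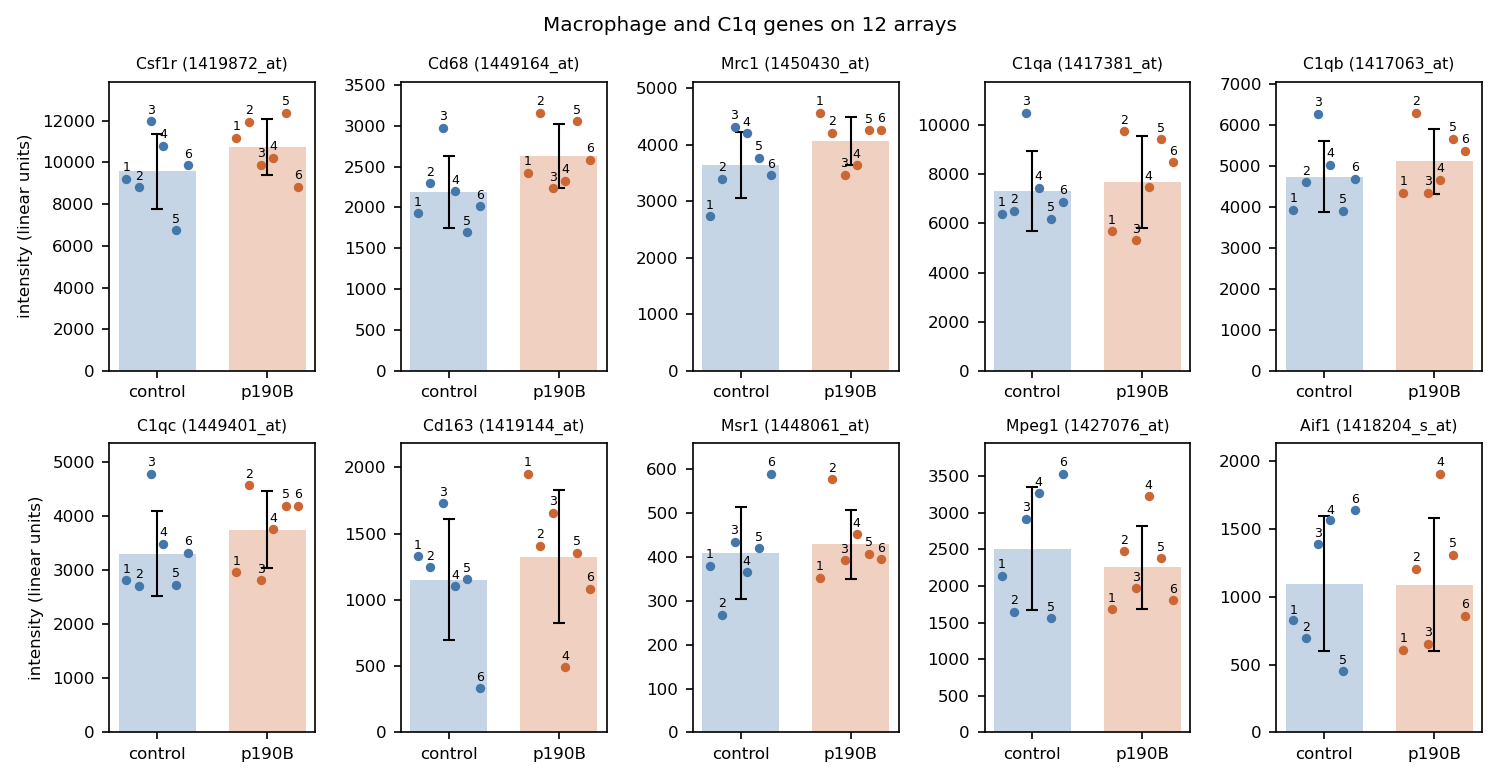
Intensity (linear units, axis from 0) of each macrophage gene's brightest probe set on the 6 control and 6 p190B arrays, with points for arrays numbered by replicate, bars for group means and lines for ± 1 SD. The groups overlap for all 10 genes, and Cd163 is low on control 6 and p190B 4.

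**Figure D2:**
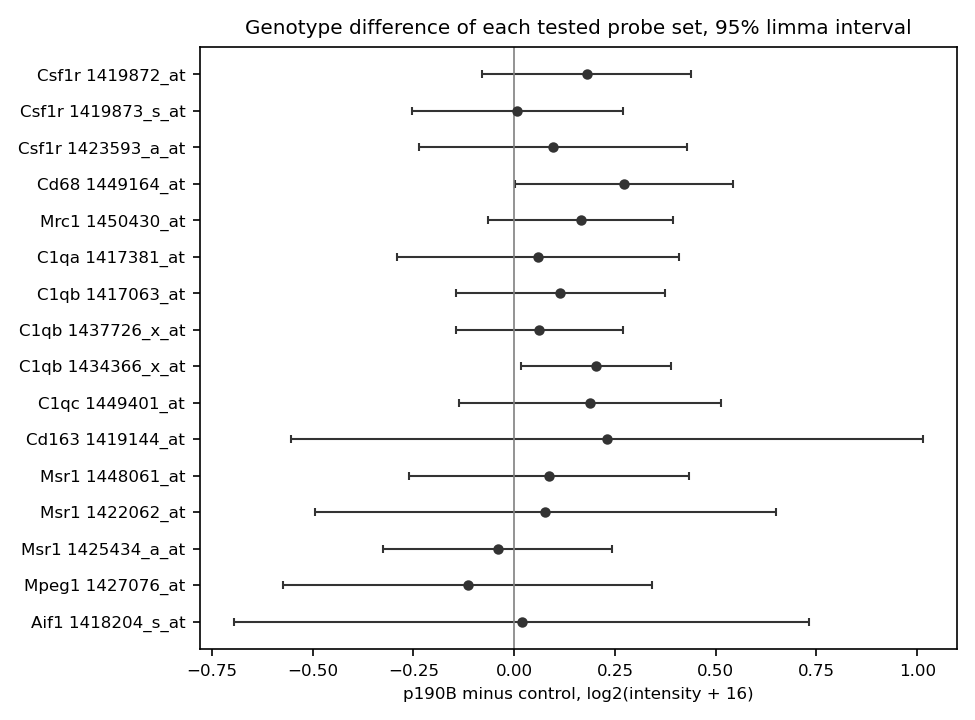
Log2 difference of p190B minus control for the 16 tested probe sets, with limma's 95% interval (unadjusted). The points lie between −0.11 and 0.27, and the intervals of Cd68 and of C1qb 1434366_x_at lie above 0, though neither passes after adjustment over all tested probe sets.

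The mean log2 value of the 10 genes ran from 10.98 to 11.69 on control arrays and from 11.18 to 11.65 on p190B arrays, a difference of 0.12 that was not tested. It was 0.06 without control 5, 0.20 without control 3 and 0.21 without p190B 1 and p190B 3. The mean of 31 other macrophage markers ran from 10.67 to 11.32 on control arrays and from 10.71 to 11.29 on p190B arrays. The Gapdh log2 3′ over 5′ ratio, a measure of RNA or labelling quality, had a mean of −0.49 ± 0.02 over the control arrays and of −0.40 ± 0.06 over the p190B arrays (SD, 6 arrays each). It ran from −0.517 to −0.471 on control and from −0.478 to −0.318 on p190B arrays, so its part and that of genotype can hardly be told apart. With this ratio as a covariate the median difference of the 16 probe sets was 0.19, with wider SEs (Csf1r 0.19 against 0.12, Cd68 0.20 against 0.13). With the Actb ratio in its place the median was 0.23, C1qa gave 0.35 (SE 0.16), C1qc 0.43 (SE 0.16) and Aif1 0.47 (SE 0.37). None passed with either ratio (smallest limma adjusted p with the Actb ratio 0.289), and with that ratio 4 of the 16 were below 0.05 before adjustment, against 12.6% of all tested probe sets.

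Genes that act around these markers did not pass either, each being read by its brightest probe set. Of 18 tested genes of the CSF1 receptor pathway 0 passed in limma, with a median log2 difference of 0.03. Those with the smallest p were Dok2, an adaptor that dampens receptor kinase signalling (0.44, SE 0.15), Spi1, which encodes PU.1 (0.43, SE 0.21), and Csf2, the growth factor GM-CSF (0.69, SE 0.37). The ligand genes Csf1 and Il34 were detected on all arrays, at 2448 to 5128 and 290.4 to 578.7 units.

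Of 18 tested complement genes other than C1q 0 passed, with a median of 0.07. C1ra, a protease that joins C1q in the C1 complex, gave 0.25 (SE 0.10), and Cd59a, an inhibitor of the membrane attack complex, −0.19 (SE 0.07). Of 27 scavenger and phagocytic receptor genes 0 passed, with a median of 0.12. The smallest p belonged to the Fc receptor Fcgr4 (0.50, SE 0.19), the lectin Clec10a (0.37, SE 0.17) and the scavenger receptor Stab1 (0.28, SE 0.16).

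Lysosomal genes gave a median of 0.09 over 16 tested members, 13 of them above 0, and 0 passed. Grn, which encodes progranulin, gave 0.17 (SE 0.05), the cholesterol carrier Npc2 0.23 (SE 0.08) and the protease Ctsh 0.12 (SE 0.05). Of the 31 other macrophage markers 0 passed, with a median of 0.10 and 23 above 0. Over all tested probe sets 14839 of 27022 lay above 0. Limma adjusted p ran from 0.355 to 0.622 for the genes named by smallest p in these lists, and was 0.993 for Csf1 and 0.966 for Il34.

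Across the 12 preparations the macrophage genes did not vary as 1 block. Over the 45 pairs of genes the median Pearson r of log2 values was 0.49, with 41 pairs above 0. Over 26796 pairs of genes from all marker lists the median was 0.159, with 16922 pairs above 0. The 3 C1q pairs stood at 0.913 to 0.942, while Cd163 had r between −0.0188 and 0.128 with them. The genes were picked as markers of 1 lineage and all values come from the same 12 arrays, so the pairs are not independent.

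C1qa and C1qc had r = 0.942 (permutation p = 1e-05, the smallest that 100000 resamples give, and 0.00045 adjusted over the 45 pairs) and Spearman rho = 0.867 (permutation p = 0.00052). Without control 3 and p190B 2, the arrays farthest from the C1qa median, r was 0.893. It was 0.974 within the control group and 0.989 within the p190B group. High and low arrays were therefore much the same for both chains in either genotype.

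Cd68 lay nearest to the C1q chains. With C1qb it had r = 0.904 (permutation p = 0.0001, 0.00099 adjusted) and rho = 0.783 (permutation p = 0.00389). Leaving out p190B 2 and control 5 gave 0.845, and r within the genotypes was 0.938 and 0.937. Csf1r had r = 0.802 with Cd68 (permutation p = 0.00146, 0.00939 adjusted), rho = 0.706 (permutation p = 0.0133) and 0.621 without control 5 and p190B 5. The relation of Csf1r to C1qb, r = 0.7004, did not pass (permutation p = 0.0103, 0.0513 adjusted; rho = 0.643, permutation p = 0.0281), and it was 0.842 within control and 0.395 within p190B arrays. Over both genotypes without p190B 1 and p190B 3 it was 0.802.

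Mpeg1 and Aif1 formed another tight pair, with r = 0.944 (permutation p = 4e-05, 0.0006 adjusted) and rho = 0.923 (permutation p = 7e-05). It was 0.936 without control 6 and control 5, 0.975 within control and 0.940 within p190B arrays. With Cd68, in contrast, Mpeg1 had r = 0.194 and Aif1 0.400, and neither passed (permutation p = 0.540 and 0.197). Their rho was 0.112 and 0.224 (permutation p = 0.732 and 0.484). With the C1q genes and Csf1r, Aif1 had r from 0.567 to 0.652 and Mpeg1 from 0.412 to 0.529. None of these passed (permutation p from 0.02475 to 0.1817, adjusted 0.101 to 0.2725), nor by rho (0.420 to 0.657). With Csf1r, Aif1 and Mpeg1 had r = 0.887 and 0.798 within control arrays, and 0.252 and 0.275 within p190B arrays. Over both genotypes without p190B 1 and p190B 3 these were 0.784 and 0.658. Whether any r differed between genotypes was not tested. In all, 8 of 45 pairs had an adjusted p under 0.05 by Pearson r: the 3 C1q pairs, Cd68 with each C1q gene, Csf1r with Cd68, and Mpeg1 with Aif1. By rho, Csf1r with Cd68 and Cd68 with C1qa did not pass (0.0738 adjusted for each). Pairs from all marker lists were not tested in this way, so no background share stands beside the 8.

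Cd163 ran against Mpeg1 (r = −0.581, permutation p = 0.0419, 0.111 adjusted; rho = −0.329, permutation p = 0.297) and did not pass. Without its low arrays, control 6 and p190B 4, r was 0.00739, so the relation rests on those arrays. On them Mpeg1 and Aif1 were high: Aif1 read 1644 on control 6 and 1907 on p190B 4, the highest values of each group. Csf1r, Cd68, Mrc1 and the C1q genes lay at most 0.23 from their 12-array means (log2) on these arrays.

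**Figure D3:**
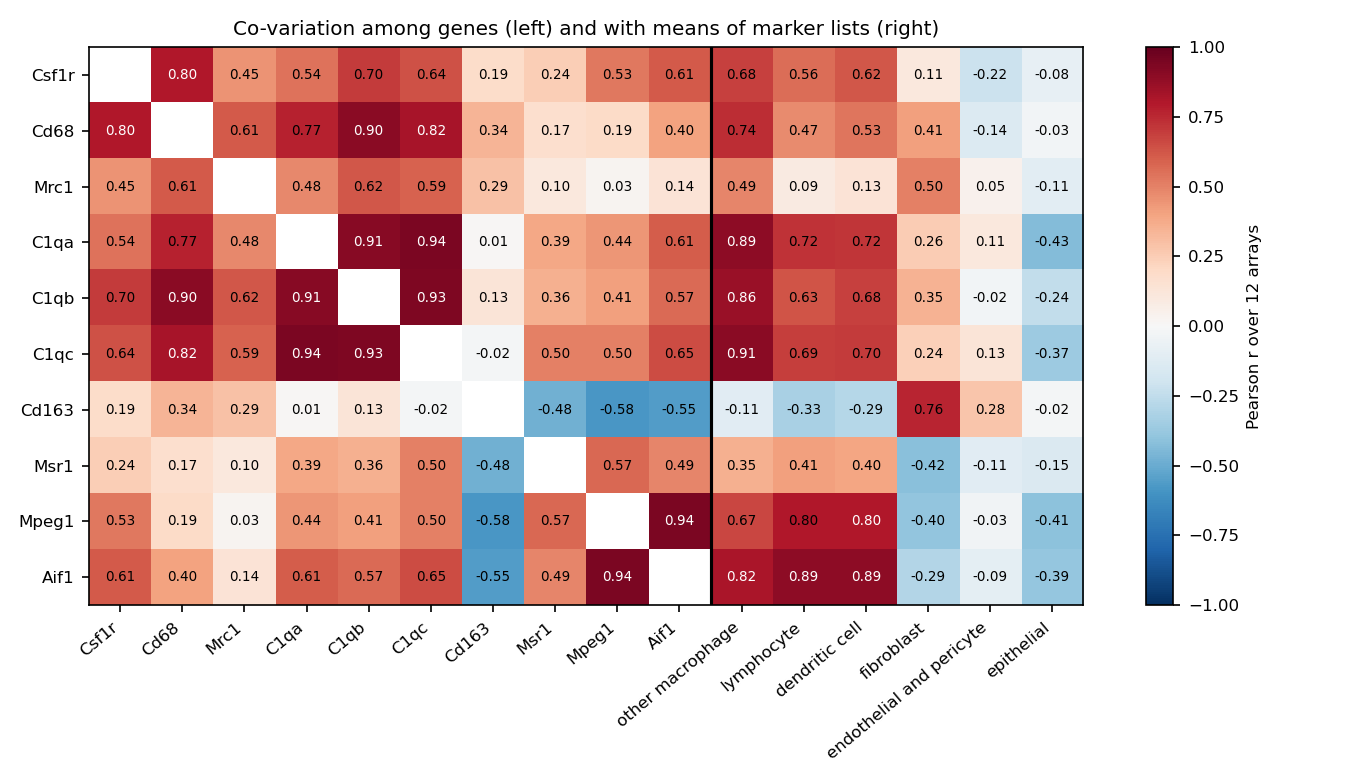
Pearson r over the 12 arrays between macrophage genes (left block) and between each gene and the mean log2 level of 6 marker lists (right block). The C1q genes and Cd68 form 1 block with r from 0.77 to 0.94, Mpeg1 and Aif1 another at 0.94, and Cd163 lies between −0.58 and 0.34 with the other genes. Between these blocks, Aif1 has r from 0.57 to 0.65 with the C1q genes.

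Mpeg1 and Aif1 varied with the lymphocyte markers. With the lymphocyte marker mean, Aif1 had r = 0.893 (permutation p = 0.00025, 0.00432 adjusted over 60 relations of genes to lists) and rho = 0.888 (permutation p = 0.00026). It was 0.842 without p190B 1 and control 5, 0.886 within control and 0.947 within p190B arrays. Mpeg1 had r = 0.798 (permutation p = 0.00306, 0.0230 adjusted), rho = 0.818 (permutation p = 0.00192) and 0.703 without the same arrays, and it was 0.842 within control and 0.889 within p190B arrays. Dendritic cell markers gave nearly the same values, 0.891 for Aif1 and 0.803 for Mpeg1 (permutation p = 0.00019 and 0.00267, adjusted 0.00432 and 0.0230; rho = 0.811 and 0.790, permutation p = 0.00211 and 0.00354). Without p190B 1 and control 5 these were 0.815 and 0.6998, and within the genotypes they ran from 0.823 to 0.912. The dendritic cell and lymphocyte means were not separate measures. In each genotype both were lowest on the same array (control 5 and p190B 1), and both were highest of the controls on control 4. The tested dendritic cell markers also differed among themselves, from a 1.17-fold range over the arrays for Cd24a to 39.6-fold for Ccr7. Dendritic cells also make Aif1 and Mpeg1, and which cells gave the signal was not tested.

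Mrc1 had r = 0.0922 with lymphocyte markers (permutation p = 0.780, rho = 0.00699, permutation p = 0.992) and Cd163 −0.328 (permutation p = 0.307, rho = −0.343, permutation p = 0.276). C1qa had 0.721 (permutation p = 0.00959, 0.0543 adjusted, with rho = 0.727, permutation p = 0.00948) and did not pass. Nor did C1qc, C1qb and Csf1r, at 0.690, 0.628 and 0.561 (permutation p = 0.0159, 0.0299 and 0.0540, adjusted 0.0595, 0.0943 and 0.162). Their rho was 0.615, 0.657 and 0.5035 (permutation p = 0.0370, 0.0230 and 0.0981). Csf1r had r = 0.909 within control and 0.344 within p190B arrays, and 0.702 without p190B 1 and control 5. Over both genotypes without p190B 1 and p190B 3 its r was 0.876. With the other macrophage markers the C1q genes stood highest, at 0.893 for C1qa, 0.864 for C1qb and 0.905 for C1qc (permutation p from 8e-05 to 0.00036, adjusted 0.00432 for each; rho from 0.860 to 0.951, permutation p at most 0.00071). Without control 3 and control 5 these were 0.882, 0.802 and 0.872, and within the genotypes they ran from 0.796 to 0.925. Several of those markers, such as Cd53 and Laptm5, are also made by lymphocytes. With the same other macrophage markers Aif1 had r = 0.816 (permutation p = 0.00294, 0.0230 adjusted; rho = 0.734, permutation p = 0.00881, 0.0569 adjusted) and Mpeg1 0.666 (permutation p = 0.0225, 0.0795 adjusted; rho = 0.643, permutation p = 0.0277). Whether either gene's r differed between the lists was not tested. No gene passed with the epithelial or endothelial means, where r ran from −0.432 to 0.281.

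**Figure D4:**
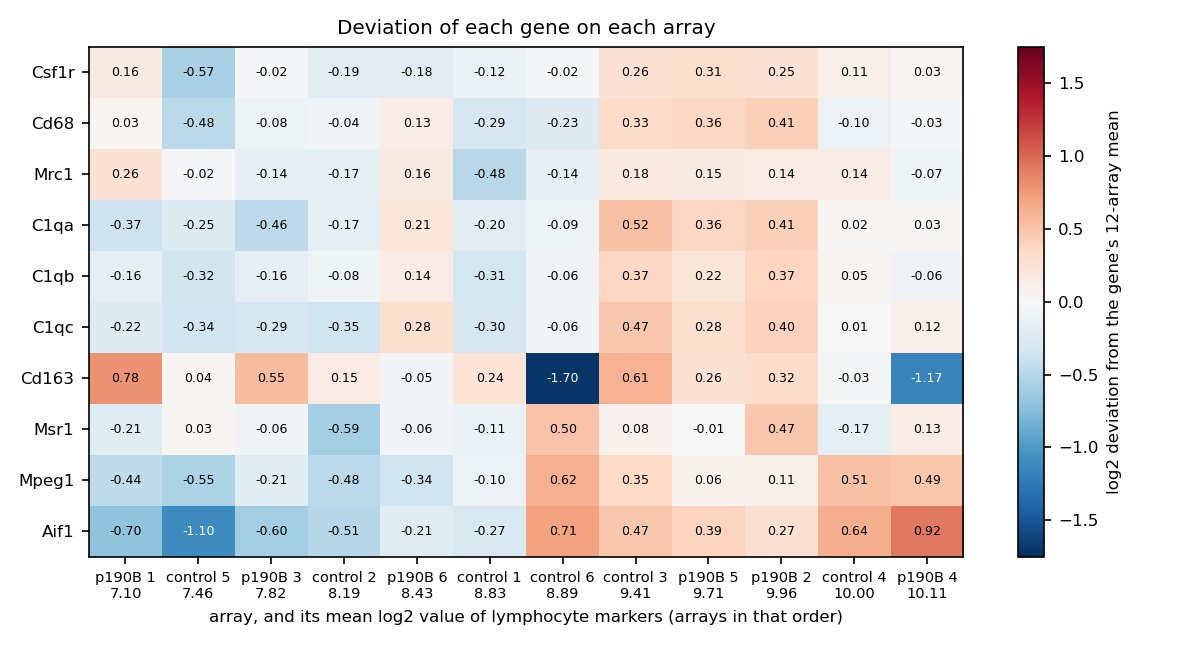
Log2 deviation of each macrophage gene from its own 12-array mean, with arrays ordered by their mean lymphocyte marker level (printed under each). Aif1 and Mpeg1 are below their means on the 6 arrays with the lowest lymphocyte level and above on the other 6, the C1q genes are highest on control 3 and p190B 2, and Cd163 falls to −1.70 and −1.17 on control 6 and p190B 4.

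**Figure D5:**
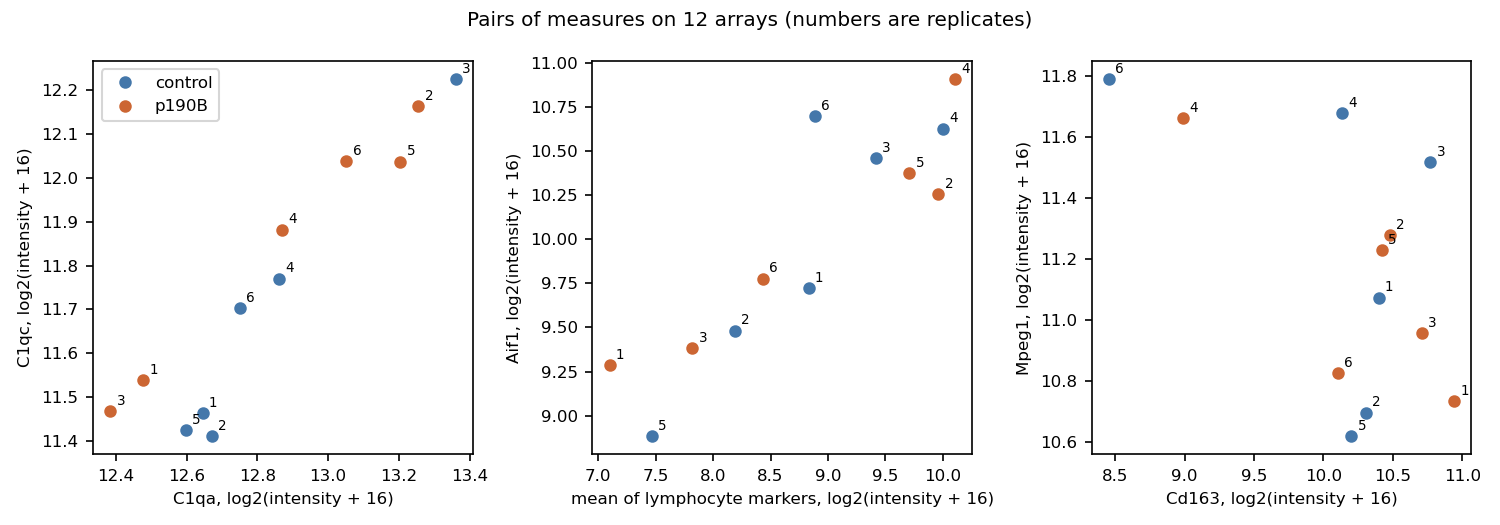
C1qc against C1qa, Aif1 against the lymphocyte marker mean, and Mpeg1 against Cd163, each as log2(intensity + 16) on 12 arrays, coloured by genotype and numbered by replicate. The first panel is close to a line (r = 0.942), the second rises (r = 0.893), and the third rests on control 6 and p190B 4 at its left edge.

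The probe sets most like the C1q chains were ranked by Pearson r with the mean of C1qa, C1qb and C1qc over the 12 arrays. Only probe sets above the filter with exactly 1 symbol were listed, 1 per gene, and no test was run on these ranked values. Counts out of 27022 cover every tested probe set. The highest outside the 10 genes were Cfp (0.908), which encodes properdin of the alternative complement pathway, Phtf2 (0.898), Ints14 (0.890), Ltc4s (0.887), Ifi27l2a (0.884), Alox5ap (0.881), Praf2 (0.880), Cd180 (0.878), Cybb (0.877) and Ctsz (0.874). Ltc4s and Alox5ap act in leukotriene synthesis, Cybb is the catalytic subunit of the phagocyte oxidase, and Ctsz is a lysosomal protease. The lowest were Eps8l1 (−0.947), Stac2 (−0.919) and Tanc2 (−0.903). Cd68 stood at 0.844 with this mean, with 34 of 27022 tested probe sets above it, and the median over all was −0.0226.

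Ranked in the same way, the probe sets most like Csf1r were Rhebl1 (0.904), Tor4a (0.888), Paxip1 (0.884), Yeats4 (0.872), Cd300c2 (0.870), 5830411N06Rik (0.870), Rassf5 (0.867), the kinase Syk (0.866), the iron exporter Slc40a1 (0.864) and Csf2ra (0.860), a subunit of the GM-CSF receptor. The lowest were Pds5b (−0.882), Tomm20 (−0.877) and Elavl1 (−0.873). Cd68, at 0.802, had 45 of 27022 tested probe sets above it. C1qb, at 0.7004, had 280.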

How the data were processed

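Per the labels' protocols, biotin-labelled cRNA from total RNA was hybridised to Affymetrix arrays, 1 array per sample. The deposited intensities are linear, 1 per probe set and array, and the submitters' processing notes name MAS5, without its version or scaling. Values ran from 0.1 to 64224.3, and array medians from 187.6 to 211.5. An array has no read depth, and 6 arrays per group limit the precision.

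Genes were named by the platform annotation and checked by Entrez ID against RefSeq (GRCm38.p6), which changed 0 symbols. Values were used as log2(intensity + 16), which understates changes of dim genes. Probe sets at or above the 40th percentile of mean level (101 units) were tested with limma 3.58.1 in R 4.3.3 with an intensity trend in eBayes. Its p-values were two-sided and were adjusted over all 27022 by Benjamini-Hochberg, with a threshold of 0.05. In 10 simulated runs with 200 changed probe sets it recovered 86.6% of 2-fold changes between p190B and control, and 5.62% of its calls were false. The runs drew each probe set independently and held no smaller changes. They therefore do not give the power for differences as small as those of the macrophage genes. Correlations were computed in Python 3.11.15, with two-sided permutation p over arrays, 100000 resamples each.

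Named are all probe sets of the 10 genes, up to 3 genes per list by smallest p, and the 10 highest and 3 lowest neighbours by r. The genes, lists and tests were chosen with earlier results of these data known. Alternatives covered pseudocounts, filters, scaling, variance models, array weights, a replicate block, covariates and left-out arrays.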

Additional observations from a re-analysis of the deposited data

Results flagged for a closer look

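Of 40 groups of 6 arrays examined (20 measures in each genotype), 4 held an array far from the rest of its group, and chance gives about 1 in 20. C1qa on control 3 read 10504.4 against 6184.5 to 7428.5 on the other control arrays, and C1qc on the same array read 4773.1 against 2706.6 to 3477. Msr1 probe set 1425434_a_at read 323.4 on control 4 against 193.4 to 224.8. Msr1 probe set 1425435_at, below the level filter, read 59.5 on p190B 1 against 91.2 to 106.6 on the other p190B arrays.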

How the results depend on the processing

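Arrays limit these results by number, 6 per group, and by the noise of dim probe sets. None of the 16 tested probe sets was called under any of the 26 other settings in which it was tested. Msr1 1422062_at and 1425434_a_at were not tested under the 60th percentile filter, which left 14. The median difference of these probe sets ran from 0.03 to 0.21 when single arrays were left out, the mean of the 10 genes differed by 0.06 to 0.20, and the median r of the 45 pairs ran from 0.416 to 0.539. The replicate numbers are shared between genotypes. Arrays with the same number correlated between −0.287 and 0.408 in their deviations. Of the 6 control arrays, 1 was best matched by its own number. The labels name no batch, and whether same-numbered arrays were prepared together was not tested. With the replicate block 0 probe sets passed in all and 0 of the macrophage genes, with 2287 and 0 at an unadjusted p under 0.05.

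Over all 27022 probe sets 10 passed (1 higher in p190B), 4 to 9 when 1 array was left out, 5 with no filter, 17 with a filter at the 60th percentile, 28 with quantile normalisation (8 higher), 4 with equal medians (0 higher), 3 without trend, 19 with array weights, 1 after adding the Actb 3′ over 5′ ratio to the model, 0 after adding that of Gapdh (1802 at an unadjusted p under 0.05), 24 with lymphocyte markers as a covariate and 5 without p190B 1 and p190B 3. Signs of small differences turned. With equal medians Csf1r 1419873_s_at gave −0.023 and Aif1 −0.012, with array weights the former gave −0.027, and with lymphocyte markers as a covariate Aif1 gave −0.012. With the Actb ratio Csf1r 1419873_s_at gave −0.085, Csf1r 1423593_a_at −0.0050, Cd163 −0.22, Msr1 1425434_a_at 0.073 and Mpeg1 0.0887. With the Gapdh ratio the same probe sets other than Csf1r 1423593_a_at gave −0.18, −0.50, 0.15 and 0.10. Without p190B 1 and p190B 3 they gave −0.058, −0.047, 0.043 and 0.020. The cause was not tested. When single arrays were left out, Csf1r 1419873_s_at ran from −0.062 to 0.092, Csf1r 1423593_a_at from −0.013 to 0.23, C1qa from −0.018 to 0.17, Cd163 from −0.088 to 0.49, Msr1 1448061_at from −0.023 to 0.20, Msr1 1422062_at from −0.067 to 0.25, Msr1 1425434_a_at from −0.086 to 0.055, Mpeg1 from −0.24 to −0.0026 and Aif1 from −0.20 to 0.16.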

Other observations

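Of the 6 marker lists set beside it, Cd163 had its highest Pearson r with fibroblast markers, 0.762 (permutation p = 0.0118, 0.0543 adjusted over 60 relations), which did not pass, and its rho was 0.238 (permutation p = 0.458). Without control 6 and control 1 the r was 0.471. Control 6 had the lowest mean log2 level of the 15 fibroblast markers, 12.70, against 13.14 to 13.46 on the other control arrays. On p190B 4, the other array with low Cd163, the fibroblast mean was 13.15, the lowest of the p190B group.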
